A study of Drosophila melanogaster with 16 samples.

Results

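Of the 3370 regions bound by Polyhomeotic (PH) in the L3 eye disc, 461 (13.7%) overlapped neither a listed region of Polycomb (PC) nor one of either H3K27 mark. These sites were chosen by the eye disc lists themselves: a PH region counted when it shared no base with an eye PC region, an eye K27me3 domain or an eye K27ac region, on arms X, 2L, 2R, 3L, 3R and 4. They are called unmarked PH-only sites here. Absence from the eye lists of PC, K27me3 and K27ac is therefore the definition of the set and not a result. A site missing from a list may still hold the protein or mark below the level that was called. The wing disc lists took no part in the choice.

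PH and PC are subunits of Polycomb repressive complex PRC1. PC carries a chromodomain that binds H3 trimethylated at lysine 27 (K27me3), the mark laid down by PRC2, while PH has a sterile alpha motif through which PRC1 complexes join to each other. In the textbook arrangement PRC1 sits at Polycomb response elements inside broad K27me3 domains over silent developmental genes. Acetylation of the same lysine (K27ac) excludes methylation there and is found at active promoters and enhancers. PRC1 subunits are also known at active genes outside K27me3. Imaginal discs are the larval epithelia from which adult structures such as the eye and the wing form.

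The part of the series used here is ChIP-seq of PH, PC, K27me3 and K27ac from eye discs and of PH, PC and K27me3 from wing discs, all at stage L3. Each antibody and disc is 1 sample that stands for replicates 1 and 2 together, and the labels give no genotype, strain or sex for these samples. The samples were labelled as discs, although the shared chromatin protocol speaks of embryos. The deposited lists hold only an arm, a start and an end for each region, with no height or score, so a stronger site cannot be told from a weaker one and read depth is unknown. No spread between replicates can be given and no difference between classes was tested. Intervals are exact Clopper-Pearson 95% intervals for shares and order-statistic 95% intervals for medians, and cover counting error only. Neighbouring regions of a list are not independent, which makes these intervals too narrow.

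The remaining 2909 eye PH regions fell into 4 classes. PH without PC lay on K27ac at 1118 regions (33.2% of all eye PH regions) and in K27me3 domains, with or without K27ac, at 103 (3.06%). PH with PC lay outside K27me3 at 1001 regions (29.7%) and in K27me3 at 687 (20.4%).

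Unmarked PH-only sites were narrow. Their median width was 880 bp (interval 840 to 919), against 1298 bp (1243 to 1339) for PH-only regions on K27ac and 1316 bp (1294 to 1343) for all other eye PH regions. From the 5th to the 95th percentile they ran from 486 to 1751 bp, while all other eye PH regions ran from 641 to 2863 bp. The closest class in width was PH-only in K27me3, at a median of 922 bp (858 to 1080). Only 8 of the 461 were wider than 2 kb and 4 were narrower than 200 bp, the smallest being listed at 7 bp. Of the 461 sites 51.8% fell in the lowest 25% of eye PH widths (up to 890 bp), against 20.8% of all other eye PH regions. A narrow region has less chance to touch another list than a wide one, so width and membership are not independent, and the part of width in the choice was not tested.

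**Figure D1:**
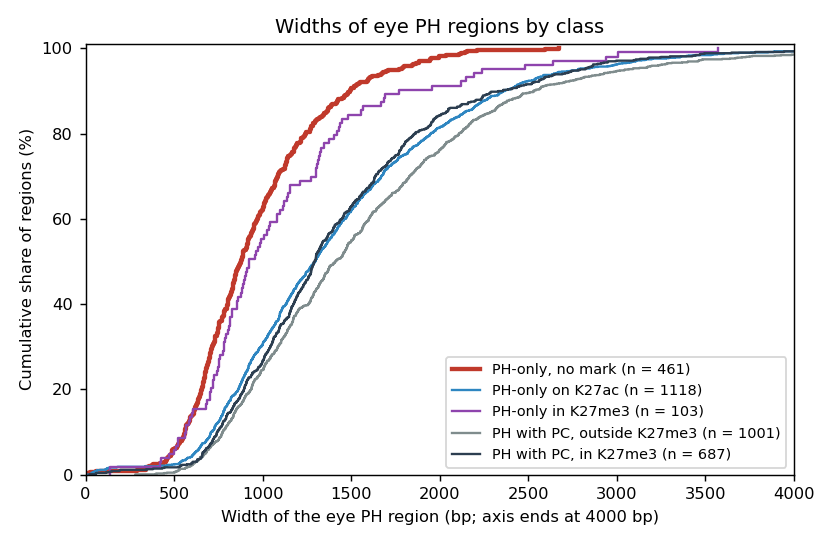
Cumulative share of eye PH regions (vertical axis, %) by region width (horizontal axis, bp), with 1 line per class. The line of the 461 unmarked PH-only sites runs left of the others over most of its length, with its median at 880 bp against 1298 bp for PH-only regions on K27ac.

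Widths also differed between arms, in the unmarked sites and in the rest alike. On X the median width was 671 bp (637 to 719) for the 111 unmarked sites and 1038 bp (990 to 1083) for all other eye PH regions of X. On 2R it was 1134 bp (976 to 1297) for the 79 unmarked sites and 1570 bp (1475 to 1662) for the others. On 2L, 3L and 3R the unmarked sites had medians of 892, 985 and 943 bp, against 1418, 1334 and 1423 bp. On each of these 5 arms the intervals of the unmarked sites and of the others did not overlap. Without X the median of the unmarked sites was 974 bp.

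The sites were spread over all arms, at 4.95 per Mb on X, 4.69 on 3L, 3.95 on chromosome 4, 3.74 on 2R, 3.22 on 2L and 2.76 on 3R. The last base covered by any of the lists stood for the length of an arm. As a share of the eye PH regions of the arm they were, among the 5 large arms, most frequent on 3L, with 115 of 661 (17.4%, interval 14.6 to 20.5), and least frequent on 3R, with 77 of 741 (10.4%, 8.29 to 12.8). X, 2L and 2R had 13.1%, 13.4% and 14.5%, and the small chromosome 4 had 5 of 21 (23.8%, 8.22 to 47.2). Along the 5 large arms no end of the coordinates held most of them. Cut into 5 equal stretches from low to high coordinate, the arms held 18.0%, 21.1%, 20.4%, 24.6% and 16.0% of the unmarked sites, against 20.7%, 21.6%, 22.3%, 19.9% and 15.5% of all eye PH regions.

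Although none touched a listed K27ac region, K27ac was the nearest of the 3 eye lists for 367 of the 461 sites (79.6%). The median gap to K27ac was 7.39 kb (interval 5.84 to 8.34), that to PC 30.3 kb (27.2 to 36.1) and that to a K27me3 domain 110 kb (95.2 to 123). The lists differ in extent: K27ac regions cover 21.6% of the arms, PC regions 2.51% and K27me3 domains 7.68%, in 7290, 2027 and 349 regions. The part of list length and coverage in these gaps was not tested. Within 1 kb, 95 sites (20.6%) had a K27ac region, 13 (2.82%) a PC region and 9 (1.95%) a K27me3 domain. A K27ac region lay within 1 kb on both sides of only 13 sites. In all, 352 sites (76.4%) lay more than 1 kb from all 3 lists and 152 (33.0%) more than 10 kb from all 3.

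**Figure D2:**
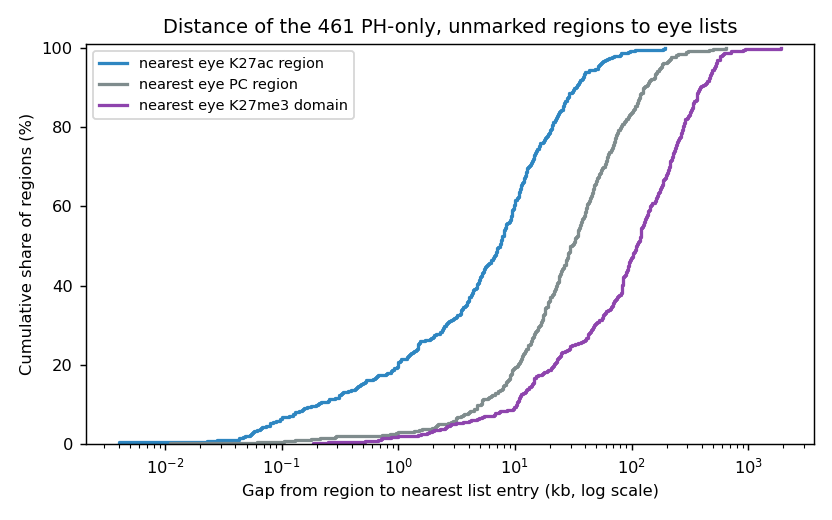
Cumulative share of the 461 unmarked PH-only sites (vertical axis, %) by the gap to the nearest eye K27ac region, PC region or K27me3 domain (horizontal axis, kb, log scale). The medians are 7.39 kb, 30.3 kb and 110 kb, so the K27ac line lies left of the PC line and the PC line left of the K27me3 line.

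The sites sat in wide stretches free of K27ac. The stretch between the flanking K27ac regions had a median of 43.7 kb (interval 37.9 to 49.6) at an unmarked site, against 1.44 kb over all 7284 stretches between neighbouring K27ac regions. A wide stretch offers more room for a site than a narrow one, and the rule asks for a place outside K27ac. A larger value is therefore built into the comparison, and any part of PH was not tested. Stretches around other PH classes were not measured. The median gap to K27ac was 13.0 kb for PH-only and 15.0 kb for PC-bound regions in K27me3, against 7.39 kb for the unmarked sites. It was 0 kb for PH-only regions on K27ac, by definition, and for PC-bound regions outside K27me3. The 461 sites lay in 358 different stretches.

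The rule turns on a single base, and the sites at its edge were close to K27ac. The 5 members nearest to a K27ac region were 4, 4, 9, 23 and 28 bp away from it. The 5 PH-only regions outside K27me3 that missed membership by the smallest overlap shared 6, 13, 22, 28 and 29 bp with K27ac, and those with 13 and 29 bp were listed at only that width. A K27ac region lay within 100 bp of 31 members, and 21 such non-members shared at most 100 bp with K27ac. The second count is of shared bases and not of distance. It includes any region of at most 100 bp, wherever that region lies in K27ac.

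Another eye PH region lay within 10 kb of 238 of the 461 sites (51.6%). The median gap to the nearest one was 9.38 kb over all 461 (interval 7.751 to 10.997). Neither value was computed for the other classes, so whether unmarked sites were nearer to PH regions or more isolated is not known. The nearest other PH region was itself an unmarked PH-only site in 166 cases (36.0%, interval 31.6 to 40.6), while such sites are 13.7% of eye PH regions. It was a PH-only region on K27ac in 144 cases (31.2%), a PC-bound region outside K27me3 in 124 (26.9%), a PC-bound region in K27me3 in 23 (4.99%) and a PH-only region in K27me3 in 4. Sites in the same K27ac-free stretch share the absence of K27ac that the rule asks for, so this share is a description of how they lie.

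When sites within 10 kb of the next were joined, 329 stood alone and 132 (28.6%) formed 59 runs. There were 47 runs of 2, 11 runs of 3 and a single run of 5. Runs were not counted for the other classes of eye PH region. The run of 5 was on 3L between 17589628 and 17612956. Its regions were 1379, 1064, 1215, 1006 and 1013 bp wide, and the first lay 0.726 kb from an eye K27me3 domain while the last lay 0.271 kb from an eye K27ac region. All 5 overlapped wing PH regions. The first region and the middle one also overlapped wing PC regions, and the first was in a wing K27me3 domain of 8.20 kb.

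The widest sites show what the set looks like at its upper end. The widest was 3R:26016073-26018745, a region of 2673 bp that lay 7.39 kb from K27ac, 61.9 kb from PC and 468 kb from K27me3 in the eye. In the wing disc 2458 bp of it were covered by PH and the nearest wing PC region was 14678 bp away. The second, 2L:16543762-16546356 (2595 bp), had a wing PH region over 2493 bp and a wing PC region over 1604 bp. The third, 3L:7861821-7864030 (2210 bp), was covered over 2206 bp by wing PH and over all 2210 bp by wing PC. The fourth and the fifth, 3L:15720860-15723016 (2157 bp) and 3L:1317918-1320062 (2145 bp), were covered by wing PH over 2124 and 2057 bp and had their nearest wing PC regions 31047 and 29008 bp away. All 5 were thus PH sites in the wing as well, and 2 of them were PC sites there. Names and features of the genes at these sites are not given, because the annotation at hand is of another genome build than the lists.

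**Figure D3:**
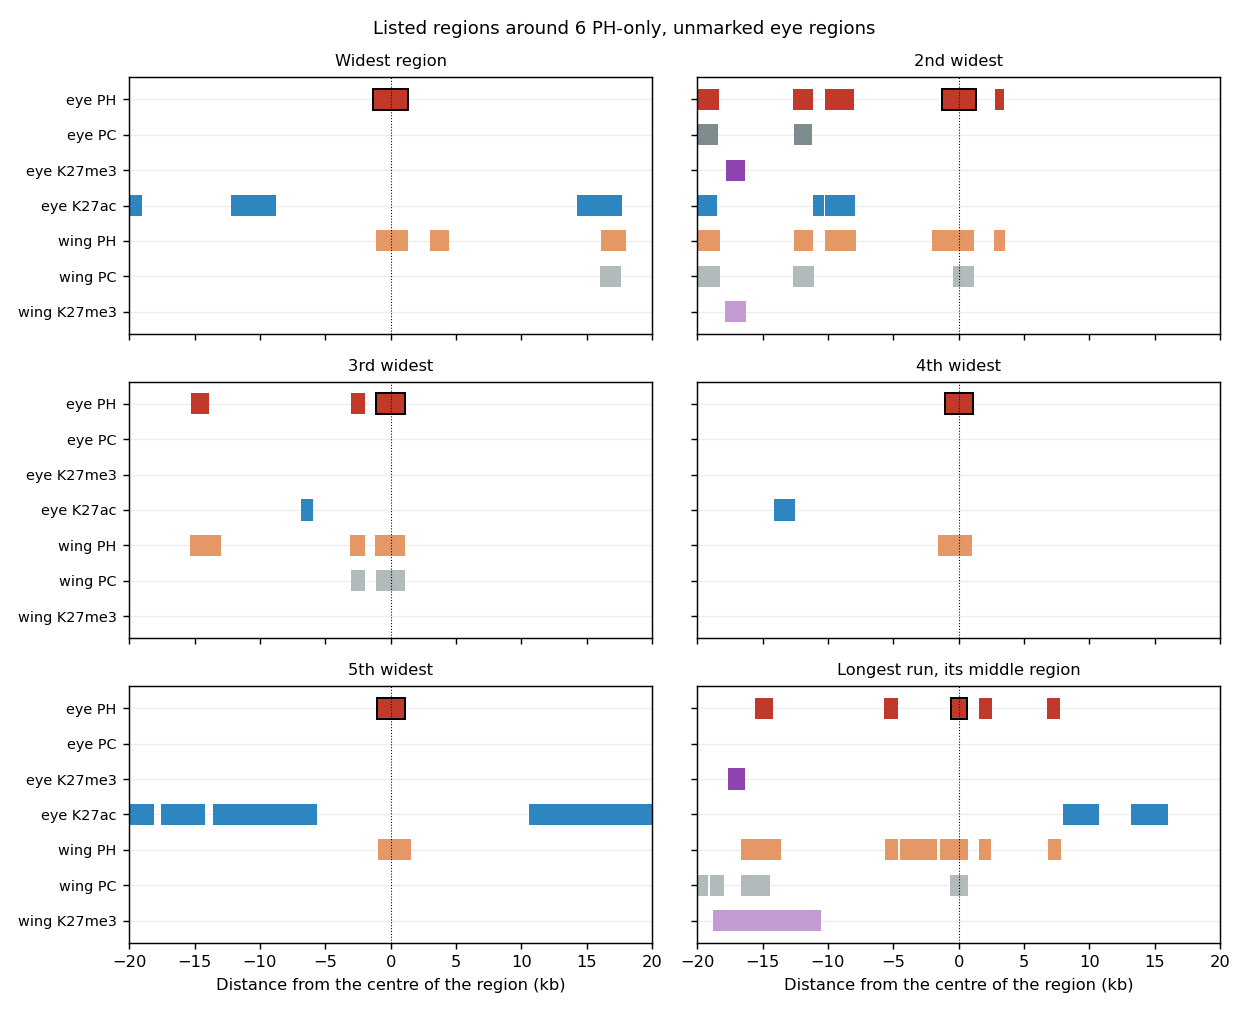
Regions of the 7 lists within 20 kb of the centre of 6 unmarked PH-only sites, the 5 widest and the middle region of the run of 5 (horizontal axis, distance from the centre in kb; rows, lists; the site itself is outlined). A wing PH region lies over each of the 6 centres, and a wing PC region over those of the second and the third widest site and of the run.

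The comparison with the wing disc asks whether sites without listed PC or a listed mark in the eye had listed PH in another disc. It also asks whether PC or K27me3 was listed there. PH was listed in the wing at 398 of the 461 unmarked sites (86.3%, interval 82.9 to 89.3). This was close to the 86.9% (84.7 to 88.8) of PH-only regions on K27ac and to the 88.5% of all 3370 eye PH regions. PH-only regions in K27me3 had 69.9% (60.1 to 78.5), and PC-bound regions had 92.7% outside and 89.5% inside K27me3. The wing PH list holds 1.502 times as many regions as the eye list and covers 7.67% of the arms. By arm the share of unmarked sites with wing PH was 82.0% on X, 82.4% on 2L, 89.9% on 2R, 93.0% on 3L and 84.4% on 3R, and 3 of 5 on chromosome 4. Over all eye PH regions the shares were 87.7% on X, 88.2% on 2L, 89.6% on 2R, 88.2% on 3L, 89.3% on 3R and 85.7% on chromosome 4.

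The shared PH regions lay at nearly the same place. Wing PH covered the eye site in full in 252 of the 398 cases and over at least 50% of its width in 397. The centres of the eye and the wing region were a median of 67.3 bp apart. Cover and centre distance were not computed for the other classes. Whether so close a match is particular to the unmarked sites is therefore not known. The eye regions were narrower, with a median of 887 bp against 1191 bp for their wing partners, a median difference of −198 bp (interval −227 to −174, eye minus wing). The eye region was the narrower of the pair in 340 of 398 cases (85.4%). Among PH-only regions on K27ac the same held for 849 of 971 (87.4%), with medians of 1313 bp in the eye and 2077 bp in the wing. The lists differ in the same direction as a whole, with a median width of 1249.5 bp for eye PH and 1551.5 bp for wing PH. The narrower eye region is thus not particular to the unmarked sites. The 398 eye sites matched 389 different wing PH regions, so few wing regions spanned more than 1 of them.

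**Figure D4:**
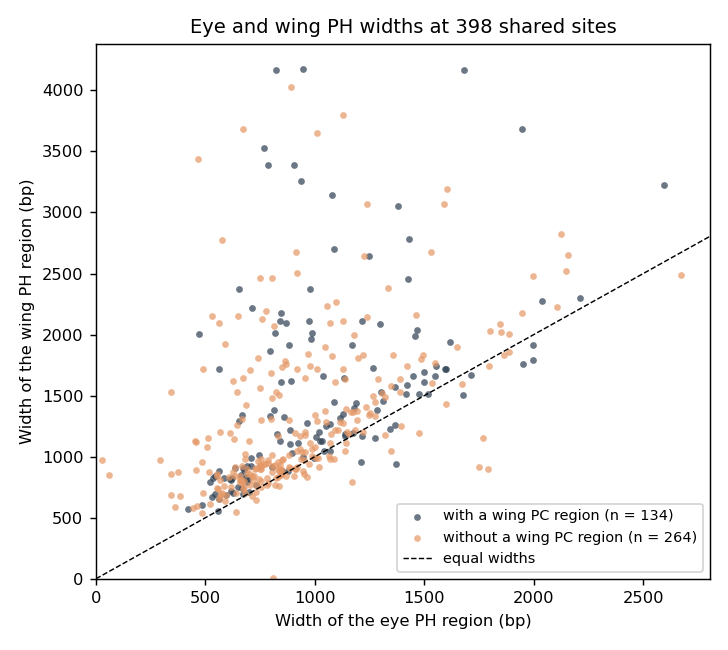
Width of the wing PH region (vertical axis, bp) against width of the eye PH region (horizontal axis, bp) at the 398 unmarked sites with PH in both discs, coloured by overlap with a wing PC region. In 340 of 398 cases the point lies above the dashed line of equal widths.

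PC was listed in the wing at 138 of the 461 sites (29.9%, interval 25.8 to 34.3), against 62.0% of all eye PH regions. This background includes regions chosen for PC in the eye, where the wing share was 79.3% outside and 87.0% inside K27me3. Among PH regions without PC in the eye, the wing PC share was 43.9% (41.0 to 46.9) on K27ac and 66.0% (56.0 to 75.1) in K27me3, so the unmarked sites had the lowest share of the 5 classes. The difference, unmarked sites minus PH-only regions on K27ac, was −13.98 percentage points (Newcombe 95% interval −18.9 to −8.78) and was not tested. Among sites that also had wing PH, 134 of 398 unmarked sites (33.7%) and 464 of 971 PH-only regions on K27ac (47.8%) had wing PC.

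Width moved with this difference. Up to 890 bp wing PC was at 25.5% of 239 unmarked sites (20.1 to 31.5) and 42.7% of 255 PH-only regions on K27ac (36.6 to 49.1). From 891 to 1249 bp it was at 29.8% of 131 (22.1 to 38.4) and 38.6% of 277 (32.9 to 44.6). From 1250 to 1751 bp it was at 45.6% of 68 (33.5 to 58.1) and 44.3% of 289 (38.5 to 50.2), and above that at 7 of 23 and 49.5% of 297. The lower share of the unmarked sites thus appeared in the narrow regions and in the 23 widest, and not from 1250 to 1751 bp, with intervals that did not overlap only up to 890 bp. Over eye PH regions at or above the median width, the difference was −5.17 percentage points. The wing PC list holds 1.83 times as many regions as the eye list and 2.77 times its length. It covers 6.94% of the arms, against 2.51% for eye PC. The part of list length or depth was not tested.

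**Figure D5:**
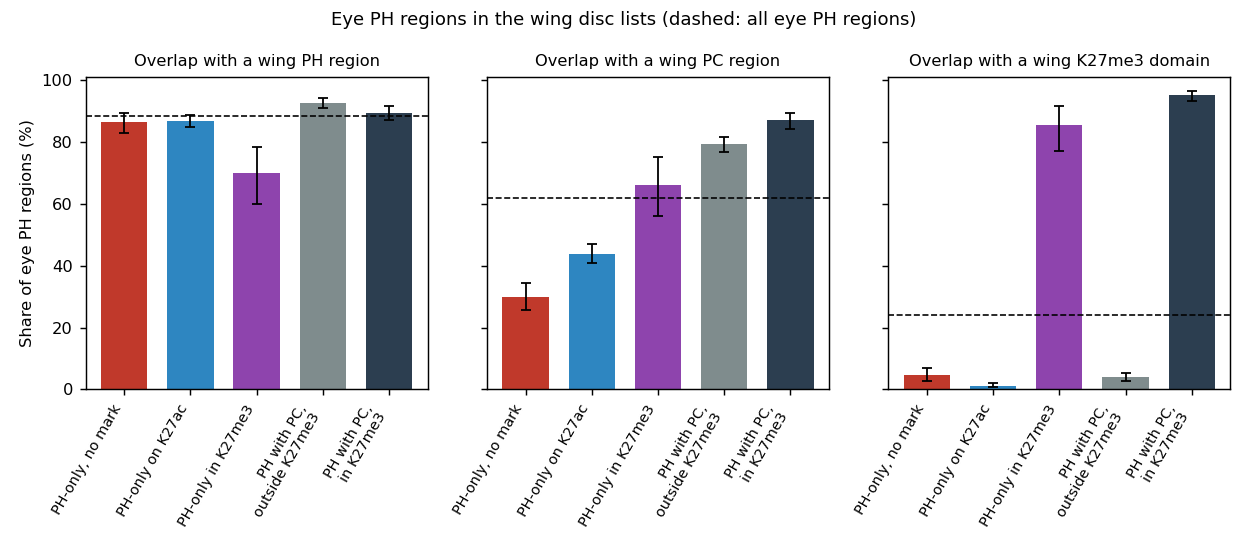
Share of eye PH regions of each class (vertical axis, %) that overlap a wing PH region, a wing PC region or a wing K27me3 domain, with exact 95% intervals and a dashed line for all eye PH regions. Unmarked PH-only sites stand at 86.3%, 29.9% and 4.56%, against 88.5%, 62.0% and 24.2% of all eye PH regions.

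At 3 of the 138 sites with wing PC, the wing PC region reached an eye PC region beside the site. The choice of sites largely fixes this count, since it bars eye PC at the site and only 13 of the 461 lie within 1 kb of an eye PC region. The wing PC region covered at least 50% of the eye site in 136 cases and had a median width of 1191 bp. Sites with wing PC were a median of 977 bp wide (880 to 1068), against 845 bp (806 to 892) for the 323 without. Their median gap to eye K27ac was 4.90 kb (3.68 to 7.65), against 8.001 kb (6.88 to 9.42), and that to eye PC 25.04 kb (20.2 to 32.1), against 34.8 kb (28.5 to 40.2), and the intervals overlapped for width and for both gaps. Wing PC was at 40.0% of the 90 sites within 10 kb of an eye PC region (29.8 to 50.9) and at 24.5% of the 155 sites more than 50 kb away (18.0 to 32.1). Between these distances it was at 29.6% of 216 sites (23.6 to 36.2). It was at 44.2% of the 43 sites within 10 kb of an eye K27me3 domain (29.1 to 60.1) and at 28.2% of the 245 sites more than 100 kb away (22.6 to 34.2). The 173 sites between had 28.9% (22.3 to 36.3), close to the far sites. For both distances the intervals of near and far sites overlapped, and other classes were not split by distance. Besides the 2 sites described above, the widest with both wing PH and wing PC were 2R:15789475-15791510, 3R:5051529-5053525 and 2R:2497244-2499239, of 2036, 1997 and 1996 bp. Wing PC covered 2036, 1650 and 1899 bp of them.

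K27me3 was listed in the wing at 21 of the 461 sites (4.56%, interval 2.84 to 6.88), against 24.2% of all eye PH regions. This background includes the classes chosen for K27me3 in the eye, at 85.4% without PC and 95.2% with PC. The classes outside eye K27me3 had 1.16% (0.62 to 1.98) on K27ac and 4.00% (2.87 to 5.40) with PC. The 21 sites lay in 18 wing domains. Of these, 9 domains with 10 sites overlapped an eye K27me3 domain, and so reached over sites that the eye domain left out. The other 9, with 11 sites, overlapped none. At 11 of the 21 sites wing PC was listed, 6 in the first group of domains and 5 in the second. Of all 816 eye PH regions in wing K27me3, 606 had wing PC with wing PH and 81 wing PC without it. That background includes regions chosen for PC in the eye. Of the 13 PH-only regions on K27ac in wing K27me3, 10 had wing PC. The widest sites in wing K27me3 were 2R:3037502-3039177 (1676 bp), 3L:21574688-21576201 (1514 bp), 3L:17589628-17591006 (1379 bp), 2R:18885640-18887006 (1367 bp) and 2R:20919135-20920431 (1297 bp). The mark covered 350, 1514, 1379, 306 and 431 bp of them. All 5 had wing PC, and the second had no wing PH although the nearest wing PH region was 1343 bp away. On 2R a wing domain of 42.0 kb held 3 sites, the most of any, none of them with wing PH and 1 of them with wing PC.

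Of the 95 unmarked sites more than 20 kb from K27ac, 83 (87.4%, interval 79.0 to 93.3) had wing PH, 24 (25.3%, 16.9 to 35.2) wing PC and 4 wing K27me3. The shares of all 461 sites were 86.3%, 29.9% and 4.56%, and those of all eye PH regions 88.5%, 62.0% and 24.2%. The wing PH share was thus near that of all 461 sites. Wing PC was at 34.7% of the sites up to 1 kb from K27ac (25.3 to 45.2). It was at 38.1% from 1 to 5 kb (28.5 to 48.6) and at 25.3% from 5 to 20 kb (19.0 to 32.4). The 5 members farthest from K27ac were 2L:17768581-17769534 at 194 kb, 2L:17778083-17778798 at 184 kb, 3R:18724648-18725328 at 106 kb, 3R:3469137-3469777 at 102 kb and X:20631168-20632020 at 97.8 kb. Their widths were between 641 and 954 bp. Each was covered by a wing PH region, over 933, 716, 681, 619 and 853 bp, and none overlapped a wing PC region or a wing K27me3 domain.

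Over the 3 wing lists, 259 of the 461 sites (56.2%) had PH with neither PC nor K27me3 in the wing, the same state in that respect as in the eye. This pattern was at 45.1% of PH-only regions on K27ac and at 27.7% of all eye PH regions. PH and PC without K27me3 were at 125 unmarked sites (27.1%), against 40.6% of PH-only regions on K27ac and 39.9% of all eye PH regions. PH, PC and K27me3 were at 9 unmarked sites (1.95%), against 0.894% and 18.0%. None of the 3 was listed at 54 unmarked sites (11.7%), against 120 PH-only regions on K27ac (10.7%) and 6.53% of all eye PH regions. The samples include no K27ac of the wing disc, so whether the 259 sites were acetylated there is not known.

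The 63 sites without wing PH had a median width of 826 bp, against 887 bp for the 398 with wing PH. The nearest wing PH region was a median of 6.13 kb away and was within 1 kb for 11 of them.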

How the data were processed

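The 7 region lists of eye and wing discs were used as deposited; they hold an arm, a start and an end, with no score. Per the submitters' processing notes the ChIP-seq tools were CASAVA 1.8.2 and SICER; for thresholds and the genome build of the lists, the sources used here name none. Per the labels, chromatin was fixed for 15 min in 1.8% formaldehyde, and 12 to 14 immunoprecipitations were pooled for PC or PH, 3 to 4 for K27me3 and 3 for K27ac.

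Only regions wider than 0 bp on the 6 main arms entered, so 8 of 3378 eye PH regions were dropped. An overlap needed 1 bp, and a distance is the number of bases between 2 regions. Coordinates are those of the lists, with starts counted from 1. At the positions of 8 Hox genes in the Release 6 annotation, 0 overlapped an eye and 1 a wing K27me3 domain, so that annotation was taken as another build. Gene starts, gene names and sequence were therefore not used here, nor were the 4 tables of genes called in RNA-seq. The named regions are the 5 widest, the 5 farthest from and nearest to K27ac, the 5 with the smallest overlap outside the rule, the 5 widest with wing PH and PC, the 5 widest in wing K27me3 and the longest run. The sites and these rules were chosen with earlier results of these data known.

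No test was run, since each list is 1 sample. Covered bases were checked on simulated data and equalled those of bedtools 2.31.1 for all 6 lists set against eye PH. Values were computed in Python 3.11.15 (pandas 2.3.3, numpy 2.4.6), intervals with scipy 1.17.1 and plots with matplotlib 3.10.9. Alternatives changed the overlap or distance that excludes a region, the widths, ends or arms that enter, and the overlap with the wing lists.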

Additional observations from a re-analysis of the deposited data

How the results depend on the processing

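Of 46 alternative values for 7 results, 36 stayed within the interval of the reported value (for the number of sites, within 1.5 times), 10 moved outside it and 0 reversed direction. With eye PH regions at or above the median width alone, 91 sites were left, of median width 1495 bp, of which 90.1% had wing PH, 41.8% wing PC and 7.69% wing K27me3. The wing PC share then differed from that on K27ac by −5.17 percentage points, and under the other alternatives by −17.0 to −13.3. Fewer and wider regions are what this alternative is made of. When a wing region within 1 kb counted, wing PC was at 36.7% and wing K27me3 at 7.38% of the sites. When a list within 1 kb excluded a region, 352 sites were left, with a median gap to K27ac of 10.02 kb, which that exclusion itself lengthens. Without X the median width was 974 bp. The difference in wing PC share was added to the alternatives after its value was seen. No paired analysis was possible because each sample stands for 2 replicates together. The gene-start comparison and its 2 other distances were not run, for want of an annotation of the build. Windows of 1 kb around the centre fix the width and so give no median width. The lists' unknown depth and lack of scores limit every share given here.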
